A study of Homo sapiens with 8 samples.

Results

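The comparison described here is that of MBD-TET1-CDwt with empty vector in HEK293T, a human embryonic kidney cell line. Its 4 arrays, of 8 in the series, were chosen by their labels, and they are MBD-TET1-CDwt clones #3 and #10 and empty vector clones #1 and #2. The fusion protein joins a methyl-CpG-binding domain to the TET1 catalytic domain, and the empty vector clones carry the same pcDNA6 plasmid without it. Each clone is an independently isolated stable line, so that n = 2 clones per group throughout, and the spread between clones includes what differs between lines. The other groups are TET1-CDwt, the catalytic domain alone (clones #2 and #5), and MBD-TET1-CDmut, the fusion with an inactive catalytic domain (clones #9 and #10). All lines, empty vector included, were selected with blasticidin S and grown in the same serum-containing medium.

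TET1 oxidizes 5-methylcytosine, which is a first step in the loss of DNA methylation, and a methyl-CpG-binding domain binds DNA where CpG sites are methylated. Methylated CpG-rich promoters are in general silent. Genes of the germ line, among them the cancer/testis antigens of the X chromosome, are a known class that somatic cells keep silent in this way.

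All values are log2 processed signals of one-color Agilent arrays minus the 75th percentile of the array, and a difference of 1 is a 2-fold difference. The 75th percentile lay between an intensity of 328 and 527, the share of probes well above background ranged from 63.2% to 68.2%, and there were 0 saturated spots. Empty vector was hybridized on slide 1 and MBD-TET1-CDwt on slide 2, so that construct and slide cannot be told apart in this comparison. MBD-TET1-CDmut shared slide 2 with MBD-TET1-CDwt, and its values are given beside the main ones for that reason. The 7499 genes not well above background on any array differed by a median of 0.37 between MBD-TET1-CDwt and empty vector, and by 0.03 in the contrast with the inactive fusion. The part of this shift in the rises from background was not tested. The 10 marker genes of HEK293T that were checked were well above background on all 4 arrays. Of 12 markers of other cell types, 7 were well above background on none of the 4 arrays (CD3E, ALB, INS, PECAM1, VWF, DCN, and GFAP), and 5 on all of them (PTPRC, APOA1, COL1A1, MYOD1, and DES). TET1 had signals of 2.62 and 2.94 in empty vector and 2.78 and 2.81 in MBD-TET1-CDwt, and MBD2 had 1.36 and 1.25 against 1.65 and 1.25. The positions of these probes relative to the transgene are not known here, so they check nothing about its expression.

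The promoters of 4 genes that changed are shown because their CpG content differs. They are the 250 bases before the RefSeq start, 5′ to 3′ on the gene's strand in GRCh38.p14, and capitals mark each CpG. HPDL (chr1:45326645-45326894, + strand) and H1-1 (chr6:26017788-26018037, - strand) hold 17 and 15 CpG sites, GTSF1 (chr12:54473603-54473852, - strand) holds 8, and MEIS3 (chr19:47422234-47422483, - strand) holds 9. HPDL, H1-1, and GTSF1 rose in MBD-TET1-CDwt and MEIS3 fell.
HPDL: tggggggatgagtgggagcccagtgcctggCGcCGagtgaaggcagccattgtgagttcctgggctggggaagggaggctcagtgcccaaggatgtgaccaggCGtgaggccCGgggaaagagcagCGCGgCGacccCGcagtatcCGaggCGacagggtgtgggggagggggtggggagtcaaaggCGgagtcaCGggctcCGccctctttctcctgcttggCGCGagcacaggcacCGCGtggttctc
H1-1: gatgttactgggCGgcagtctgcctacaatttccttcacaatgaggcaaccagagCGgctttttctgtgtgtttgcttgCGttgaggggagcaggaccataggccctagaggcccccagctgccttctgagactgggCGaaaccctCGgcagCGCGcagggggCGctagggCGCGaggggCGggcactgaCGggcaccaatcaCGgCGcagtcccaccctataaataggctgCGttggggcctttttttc
GTSF1: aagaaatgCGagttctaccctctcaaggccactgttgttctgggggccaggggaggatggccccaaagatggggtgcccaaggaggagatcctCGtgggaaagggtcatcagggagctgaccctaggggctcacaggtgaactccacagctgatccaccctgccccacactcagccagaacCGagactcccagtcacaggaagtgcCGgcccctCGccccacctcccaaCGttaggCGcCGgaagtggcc
MEIS3: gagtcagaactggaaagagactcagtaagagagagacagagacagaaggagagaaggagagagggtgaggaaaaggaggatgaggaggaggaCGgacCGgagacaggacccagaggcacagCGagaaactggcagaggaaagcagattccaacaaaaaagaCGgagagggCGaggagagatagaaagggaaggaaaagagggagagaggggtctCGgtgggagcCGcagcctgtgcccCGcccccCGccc

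The first question was which genes were higher or lower in both MBD-TET1-CDwt clones. Germ cell genes, X-linked cancer/testis antigens, and a few developmental regulators were among the genes that rose. A gene was counted as changed when its brightest probe differed at least 2-fold in each of the 4 pairs of clones, with dim signals raised to the lowest signal well above background on that array, and was well above background in both clones of the higher group. A fold change against a group that was not well above background on any array uses these raised signals and is given as "at least". By this rule 85 of 27739 genes or transcripts (0.306%) were higher in MBD-TET1-CDwt and 37 (0.133%) were lower. Of the 85, 37 had no empty vector array well above background and 36 had both. With dim signals raised, the median rise was 6.51-fold (range, 2.25 to 80.1) and the median fall 3.1-fold (range, 2.24 to 6.67). The folds of these 37 rises, and of the 6 falls with no MBD-TET1-CDwt array well above background, enter as lower bounds. Clone #10 had the higher signal of the pair in 65 of the 85. No gene that had several probes, 14 higher and 10 lower, had a detected probe of opposite sign.

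With the inactive fusion as the reference, within slide 2, 77 genes (0.278%) were 2-fold higher in all 4 clone pairs and 50 (0.18%) were lower. The MBD-TET1-CDwt mean exceeded the MBD-TET1-CDmut mean at least 2-fold for 78 of the 85 genes higher than empty vector. It lay at least 2-fold below for 27 of the 37 lower ones. The 85 and 37 genes were chosen by the same MBD-TET1-CDwt arrays. These 2 counts are thus in part fixed by that choice and are no independent check. The rule counted 23 genes higher (0.0829%) and 12 lower (0.0433%) for MBD-TET1-CDmut against the same empty vector arrays, and 5 (0.018%) and 2 (0.00721%) for TET1-CDwt.

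limma, fitted to all 8 arrays with 4 residual degrees of freedom, called 23 of 22530 probes higher (0.102%) and 3 lower (0.0133%) at a Benjamini-Hochberg adjusted p under 0.05. The 23 probes belong to 22 genes or transcripts, and 18 of them had no empty vector array well above background. Over the inactive fusion, 20 probes were called higher (0.0888%) and 3 lower (0.0133%). Of the probes called against empty vector, 18 of the 23 higher and 2 of the 3 lower were also called against MBD-TET1-CDmut. Both contrasts use the same MBD-TET1-CDwt arrays and the same pooled spread, so these calls are not independent. The higher probes not called against MBD-TET1-CDmut were those of MAGEA8, TDRD9, EFS, and VCX2, and the dimmer probe of CYP1B1. Leaving out 1 clone changed these counts several-fold. There were 10 higher and 0 lower without empty vector #1, 7 and 1 without empty vector #2, 83 and 14 without MBD-TET1-CDwt #3, and 36 and 58 without MBD-TET1-CDwt #10.

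Several germ cell genes rose in both clones. GTSF1, a protein of the piRNA pathway, had signals of -7.89 and -8.10 in empty vector and -2.52 and -2.69 in MBD-TET1-CDwt. Both MBD-TET1-CDwt clones were far above every other array, the MBD-TET1-CDmut clones being at -7.29 and -7.62. Since no empty vector array was well above background, GTSF1 was at least 9.90-fold higher (limma, adjusted p = 0.000541). SOHLH2, a transcription factor of early germ cell differentiation, went from -8.12 and -8.32 to -2.95 and -2.29, which is at least 9.82-fold higher (limma, adjusted p = 0.000952). DMRTB1, a transcription factor of spermatogenesis, went from -7.85 and -8.09 to -2.96 and -1.43, at least 13.2-fold higher (limma, adjusted p = 0.0103). That MBD-TET1-CDwt and empty vector did not overlap for these genes follows from the size rule, which they passed. PRSS21, a testis serine protease, was at -5.52 and -5.68 in empty vector and at -2.03 and -0.60 in MBD-TET1-CDwt, a 19.5-fold rise (limma, adjusted p = 0.0243). MEIOC, which sustains meiotic prophase, was at -8.0 and -8.20 against -4.47 and -2.98, at least 4.55-fold higher (limma, adjusted p = 0.0243). TDRD9, a helicase of the piRNA pathway, was at -8.04 and -8.25 against -4.84 and -3.28 (limma, adjusted p = 0.0433). TDRD9 passed limma and not the size rule, because its signal in clone #3 was within 2-fold of the raised background signal of an empty vector array. Of 55 autosomal germ cell genes on the array, 5 were 2-fold higher in all clone pairs (GTSF1, SOHLH2, DMRTB1, PRSS21, and TEX14) and 0 were lower. All genes gave 0.306% higher and 0.133% lower. Against MBD-TET1-CDmut 6 members were higher by this rule and 1 lower (all genes, 0.278% and 0.18%). The 20 members of mean signal above background, which do not include GTSF1, SOHLH2, or DMRTB1, had a median difference of 0.16, against -0.01 for all such genes. This median was 0.07 without empty vector #1 and 0.38 without empty vector #2. In 6 of the 20 both MBD-TET1-CDwt clones lay above both empty vector clones (all genes, 14.3%), and in 11 of the 20 above both MBD-TET1-CDmut clones (all genes, 19%). The mean signal is over all 8 arrays, MBD-TET1-CDwt included, so a gene can enter the 20 because it rose. PRSS21 did so, since it was below the bound of -5.51 for a mean above background on every array outside MBD-TET1-CDwt. Over all 55 members the median difference was 0.37, and over genes not well above background on any array it was 0.37. MEIOC was not on this list.

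Of 54 X-linked cancer/testis antigens, 9 were 2-fold higher in all clone pairs and 0 were lower (all genes, 0.306% and 0.133%). They were MAGEA2B, MAGEA8, MAGEA9, MAGEA12, CSAG1, CT45A5, CTAG1A, CTAG2, and VCX2. Against MBD-TET1-CDmut 8 were higher by this rule and 0 lower (all genes, 0.278% and 0.18%). Over the 17 members of mean signal above background the median difference was 0.66, with 0.73 in clone #3 and 1.03 in clone #10, and against MBD-TET1-CDmut it was 0.69. It was 1.11 without empty vector #2 and 1.03 without MBD-TET1-CDwt #3. In 11 of the 17 both MBD-TET1-CDwt clones lay above both empty vector clones, against 14.3% of all such genes. These 17 were chosen by the mean over all 8 arrays, MBD-TET1-CDwt included. Antigens not well above background elsewhere can thus enter because they rose, which raises this median and this count. Over all 54 members the median difference was 0.38, and over genes not well above background on any array it was 0.37. MAGEA2B had -7.73 and -7.34 in empty vector and -2.26 and 1.11 in MBD-TET1-CDwt. This is at least 40.6-fold, but the MBD-TET1-CDwt clones differed from each other by more than 3 log2 units and limma did not call it (adjusted p = 0.0978). CT45A5 showed the same inequality, with -4.32 in clone #3 and 0.81 in clone #10 against -6.99 and -6.52 in empty vector. VCX2 was at -4.10 and -3.39 against 0.71 and -0.35, a 15.2-fold rise (limma, adjusted p = 0.0433), and here clone #3 was the higher. CTAG1A, which encodes NY-ESO-1, was at -4.29 and -2.89 against 0.54 and -0.94, a 10.5-fold rise without a limma call (adjusted p = 0.313). MAGEA12, CTAG2, and CSAG1 rose 8.56-fold, 3.77-fold, and 3.11-fold by the size rule alone. MAGEA8 and MAGEA9 were at least 6.51-fold and 3.39-fold higher (limma, adjusted p = 0.019 and 0.00245). MAGEA8 was not called over MBD-TET1-CDmut (limma, adjusted p = 0.0696), whose clones were at -7.67 and -6.29. Several of these families have near-identical copies that a probe may not separate. The transcript NM_021123, to which the gene table gives no symbol, was at -5.92 and -7.11 in empty vector and at 0.87 and -0.43 in MBD-TET1-CDwt, at least 70.3-fold higher (limma, adjusted p = 0.0104). The X chromosome held 12 of the 77 genes with a symbol that rose (15.6%), and it carries 3.89% of the genes with a symbol on the array. Of these 12, 9 are the antigens named above.

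The largest rises were spread over genes of unrelated roles. HPDL, an enzyme related to 4-hydroxyphenylpyruvate dioxygenase, was at -5.91 and -5.33 in empty vector and -0.22 and 1.72 in MBD-TET1-CDwt, an 80.1-fold rise with 1 empty vector array well above background (limma, adjusted p = 0.0161). SOX17, a transcription factor of endoderm, went from -7.96 and -8.18 to -0.47 and 1.13, at least 75.7-fold higher (limma, adjusted p = 0.00307). Both MBD-TET1-CDwt clones exceeded all other arrays for these genes. KRT19, an epithelial keratin, rose 76.7-fold by the size rule, from -5.25 and -5.02 to -0.27 and 2.53, but limma did not call it (adjusted p = 0.0896). It was the 1 keratin of 54 that changed. NEFH, the heavy neurofilament subunit, had -6.02 and -6.92 in empty vector, -0.35 and -0.55 in MBD-TET1-CDwt, and -7.66 and -4.40 in MBD-TET1-CDmut. This probe was at least 44.2-fold higher without a limma call (adjusted p = 0.183), and a dimmer probe of NEFH was at least 2.44-fold higher with one (limma, adjusted p = 0.00245). IRF7, a transcription factor of the interferon response, was at -4.28 and -3.63 in empty vector, -0.75 and 1.89 in MBD-TET1-CDwt, and -1.19 and -1.54 in MBD-TET1-CDmut. IRF7 thus lay above empty vector in the inactive fusion as well, and it was the 1 of 39 interferon-stimulated genes that changed by the size rule. OPLAH, an enzyme of the glutathione cycle, and TCF15, a transcription factor of somites, rose at least 33.3-fold and 22.3-fold without a limma call (adjusted p = 0.252 and 0.112). EFS, a docking protein of the CAS family, H1-1, a linker histone of spermatogenic cells, and CYP1B1, a cytochrome P450, were called by limma. EFS was at -7.92 and -8.03 against -2.41 and -0.91, at least 19.1-fold higher (limma, adjusted p = 0.0243). H1-1 was at -8.04 and -8.24 against -2.20 and -2.64, at least 11.2-fold higher (limma, adjusted p = 0.0161). CYP1B1 was well above background in all 4 clones, at -2.38 and -2.22 against 0.30 and 0.53, a 6.60-fold rise (limma, adjusted p = 0.0146). The remaining probes called higher belong to MEST, OBP2A, SLC22A24, GPAT2, CRABP1, and NM_001097592, none of them well above background in empty vector. NM_001097592 was at least 9.10-fold higher, OBP2A at least 2.85-fold, SLC22A24 at least 2.25-fold, and MEST at least 1.90-fold. The called probes of GPAT2 and CRABP1 were at least 8.40-fold and 4.82-fold higher, but both genes have a brighter probe that limma did not call, with differences of 0.68 and 0.34 (adjusted p = 0.625 and 0.827). MEST, an imprinted gene, reached -4.85 and -5.13 in MBD-TET1-CDwt, within 1 log2 unit of the raised background signal on average.

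Among the lists with 1 or a few changed members, APC2, a relative of the Wnt regulator APC, was at -2.40 and -2.28 in empty vector and -0.25 and 2.45 in MBD-TET1-CDwt, a 10.8-fold rise. SLC16A3, a lactate transporter, was at -4.29 and -4.36 against -2.52 and 0.72, 10.73-fold higher, and TPM2, a tropomyosin, at 0.06 and 0.68 against 2.05 and 3.91, 6.09-fold higher. Clone #10 was the higher in all 3. BEX1 was at -5.81 and -5.33 against -2.55 and -3.39, 6.04-fold higher. limma called none of these 4 genes (adjusted p from 0.0927 for BEX1 to 0.728 for SLC16A3). Among genes outside the lists, named after their values were seen, DDX43, a cancer/testis antigen with a helicase domain, was at -6.85 and -7.86 in empty vector, -3.39 and -2.63 in MBD-TET1-CDwt, and -6.34 and -6.35 in MBD-TET1-CDmut. LY6K, another antigen of testis and tumors, was at -2.14 and -2.64 against -0.85 and 1.59. HENMT1, which methylates piRNAs, was at -7.10 and -5.05 against -3.35 and -3.60, and COL2A1, the collagen of cartilage, at -8.0 and -8.22 against -4.29 and -1.73. All 4 rose by the size rule, and limma called none of them (adjusted p from 0.112 for COL2A1 to 0.541 for LY6K). For LY6K the MBD-TET1-CDmut clones, at -0.62 and -1.24, overlapped the MBD-TET1-CDwt clones.

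**Figure D1:**
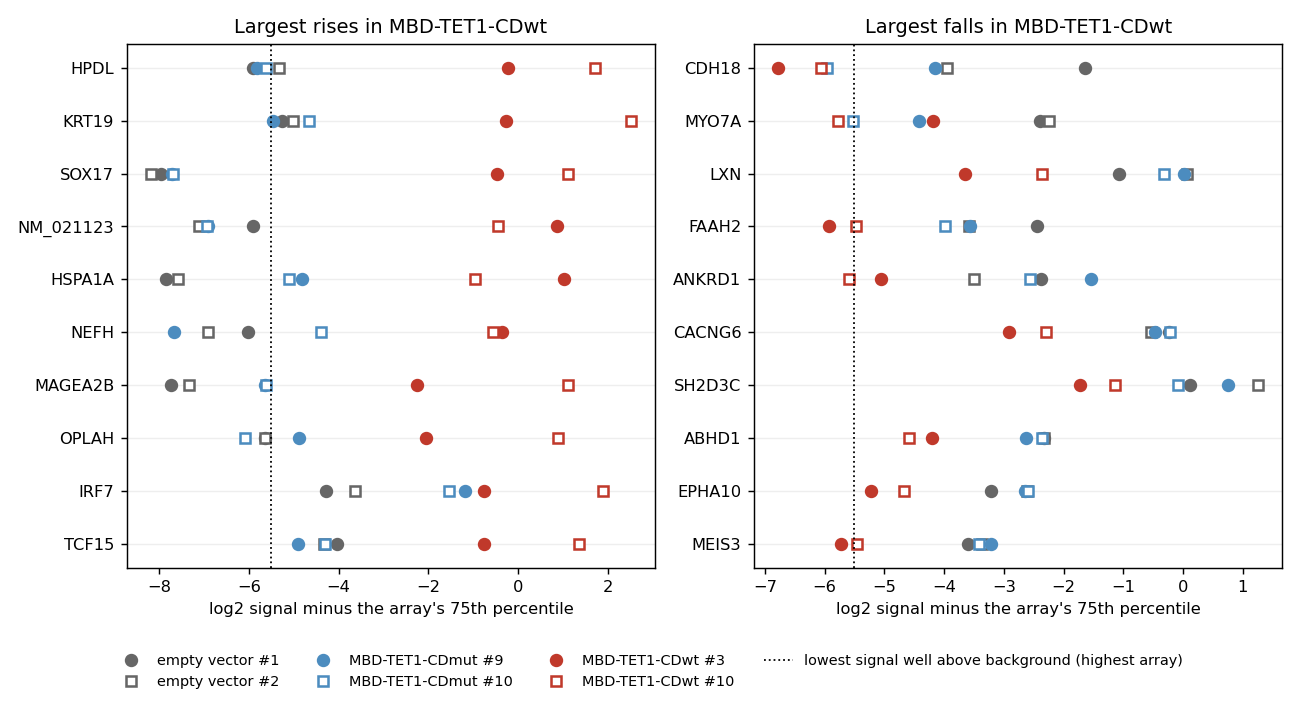
Signal on each array (log2, minus the array's 75th percentile) of the 10 genes with the largest rises and the 10 with the largest falls in all 4 clone pairs; points are single clones. By the size rule that chose the genes, both MBD-TET1-CDwt clones (red) lie on one side of both empty vector clones (gray). For IRF7 the MBD-TET1-CDmut clones (blue) lie between them.

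The falls were smaller. CDH18, a cadherin of neurons, was at -1.65 and -3.95 in empty vector and -6.78 and -6.06 in MBD-TET1-CDwt. Because the MBD-TET1-CDwt signals were not well above background, this is a fall of at least 6.67-fold, and limma did not call it (adjusted p = 0.429). The empty vector clones themselves differed by more than 2 log2 units. LXN, an inhibitor of carboxypeptidases, was lower in both clones, at -3.64 and -2.36 against -1.07 and 0.07, and remained at 0.01 and -0.32 in MBD-TET1-CDmut. MYO7A, an unconventional myosin, was at -4.19 and -5.78 against -2.39 and -2.24, but the MBD-TET1-CDmut clones were as low (-4.42 and -5.53). CACNG6, a calcium channel subunit, was at -0.24 and -0.54 in empty vector and -2.91 and -2.29 in MBD-TET1-CDwt, a 4.64-fold fall (limma, adjusted p = 0.43). FAAH2, ANKRD1, SH2D3C, ABHD1, and EPHA10, with MEIS3 (described with the limma calls), completed the 10 largest falls. ANKRD1, a target of YAP, was at -2.38 and -3.50 against -5.05 and -5.59, and SH2D3C, a signaling adaptor, at 0.11 and 1.26 against -1.73 and -1.15. FAAH2 fell at least 5.66-fold and ABHD1 4.20-fold. EPHA10, an ephrin receptor, was at -3.21 and -2.62 against -5.23 and -4.67. For these 6 genes both MBD-TET1-CDmut clones lay above both MBD-TET1-CDwt clones. KIF1A, an axonal motor protein named after its values were seen, was the brightest of the genes that fell, at 2.40 and 2.83 against 0.99 and 1.10, and was at 3.12 and 2.81 in MBD-TET1-CDmut. Further genes that fell are named here after their values were seen and stand for no list. ADGRB1, an adhesion receptor of brain, was at 0.78 and 0.76 against -0.55 and -0.26, JPH3, a brain junctophilin, at -2.12 and -1.78 against -3.71 and -3.46, and GABBR2, a GABA-B receptor subunit, at -0.88 and -0.49 against -2.13 and -1.92. DOC2A, a calcium sensor of synaptic vesicles, was at -2.38 and -2.34 against -4.26 and -3.46. These falls were 2.25-fold (ADGRB1) to 3.1-fold (JPH3), and limma called none of them (adjusted p from 0.298 for DOC2A to 0.562 for JPH3). ZNF682, a zinc finger gene, fell at least 3.79-fold, SYK, a tyrosine kinase named after its values were seen, 3.5-fold, and SLC44A5 2.94-fold.

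limma called 3 probes lower. MEIS3, a homeobox gene, was at -3.60 and -3.36 in empty vector and -5.73 and -5.45 in MBD-TET1-CDwt, a 4.07-fold fall (limma, adjusted p = 0.0444), with -3.21 and -3.42 in MBD-TET1-CDmut. FBP1, a gluconeogenic enzyme, was at -5.37 and -5.22 against -7.48 and -7.63 (limma, adjusted p = 0.0104), but its signal in empty vector was so close to background that the fall is at least 1.18-fold only. A probe of ST8SIA1, a ganglioside synthase, was at -3.90 and -4.64 against -7.46 and -7.08 (limma, adjusted p = 0.0162). With no MBD-TET1-CDwt array well above background, this is a fall of at least 2.41-fold. The brightest probe of ST8SIA1 differed by -0.16 (limma, adjusted p = 0.929). The called probe was as low in MBD-TET1-CDmut (-7.53 and -7.55) and in TET1-CDwt (-7.89 and -7.94).

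Some developmental transcription factors rose, and the rest of the list differed by small amounts. Of 164 outside the HOX clusters, 6 were 2-fold higher in all pairs (PRRX2, SOX17, TLX3, TLX2, BARX1, and HAND2) and 1 was lower (MEIS3). All genes gave 0.306% higher and 0.133% lower. Against MBD-TET1-CDmut 4 of the 164 were higher by this rule and 1 lower (all genes, 0.278% and 0.18%). In 50 of the 124 of mean signal above background both MBD-TET1-CDwt clones lay above both empty vector clones, and in 10 below, where all 17940 genes gave 14.3% and 15.1%. Against MBD-TET1-CDmut the counts were 40 higher and 19 lower, where all genes gave 19% and 16.2%. The median difference from empty vector was 0.22 in these 124 and -0.01 in all genes, and that of MBD-TET1-CDmut from empty vector was 0.12. The 124 were chosen by the mean over all 8 arrays, MBD-TET1-CDwt included, and over all 164 members the median was also 0.22. PRRX2 was at -6.75 and -7.28 in empty vector and at -4.39 and -0.29 in MBD-TET1-CDwt, at least 11.9-fold higher, and BARX1 at -3.02 and -3.46 against -1.66 and 1.05, 7.66-fold higher. For both genes clone #10 was the higher. TLX2 was also high in MBD-TET1-CDmut #9 (-0.84), but not in #10 (-5.96). Of 34 HOX genes above background, which set position along the body axis, 11 lay higher and 0 lower without overlap. Their median was 0.40 over empty vector and 0.18 over MBD-TET1-CDmut. Against MBD-TET1-CDmut 8 lay higher (23.5%, near the 19% of all genes) and 1 lower. MBD-TET1-CDmut itself had a median of 0.17 over empty vector in these genes. HOXD1 was the HOX gene that passed the size rule against empty vector, at -5.47 and -4.86 against -3.39 and -1.84. No HOX gene passed it against MBD-TET1-CDmut. These are descriptions of the lists. limma called SOX17 and MEIS3 and no other member.

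Oxidative phosphorylation genes, subunits of the respiratory chain and ATP synthase, were slightly higher in both clones. None of the 81 changed 2-fold in all pairs. limma called 0 of them, and before adjustment 2 had a p under 0.05, both of them higher (all genes, 549 higher and 609 lower of 27739). In 32 of 78 both clones lay above both empty vector clones and in 3 below (all genes, 14.3% and 15.1%). The median difference was 0.15, with 0.16 in clone #3 and 0.11 in clone #10, and against MBD-TET1-CDmut it was 0.30, with 47 of 78 higher and 1 lower (background, 19% and 16.2%). MBD-TET1-CDmut itself had a median difference of -0.13 from empty vector. UQCR10, a complex III subunit named after its values were seen, was at 6.17 and 5.79 in empty vector against 6.67 and 6.36.

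In other lists the clones moved apart. In the unfolded protein and ATF4 response, the genes that a cell induces when proteins misfold in the endoplasmic reticulum or amino acids are short, the median difference of 23 genes was -1.05 in clone #3 and 0.08 in clone #10. In 7 of the 23 both clones lay below both empty vector clones, and in 0 above (all genes, 15.1% and 14.3%). Against MBD-TET1-CDmut 9 of the 23 lay lower and 0 higher (all genes, 16.2% and 19%). HSPA5, the main chaperone of the endoplasmic reticulum, was at 1.93 and 2.43 in empty vector, -0.34 in clone #3, and 3.01 in clone #10. PDIA4, a disulfide isomerase, was at 4.51 and 4.73, 1.85, and 5.52 in the same order, and DDIT3, a transcription factor of the response, at 1.35 and 0.78, -2.18, and 0.64. Clone #3 was thus the low sample for all 3, and ATF4 itself did not follow, at 7.90 and 7.44, 7.50, and 7.75. Heat shock chaperones gave medians of 0.68 in clone #3 and -0.30 in clone #10 over 26 genes. HSPA1B, an inducible chaperone, was at 3.19 and 3.20 in empty vector, 5.20 in clone #3, and 2.37 in clone #10, and HSP90AA1, the inducible cytosolic HSP90, at 6.86 and 6.70, 7.92, and 6.30. Clone #3 was the high sample and clone #10 the low one. By the size rule HSPA2, a testis-enriched HSP70, and HSPA1A rose, HSPA2 from -4.29 and -4.09 to -2.05 and -0.92. HSPA1A was at -7.84 and -7.58 in empty vector and 1.03 and -0.95 in MBD-TET1-CDwt, at least 62.0-fold higher without a limma call (adjusted p = 0.18). It is a near-identical copy of HSPA1B, whose probe was bright in all clones, so the identity of this signal is uncertain. Mitosis genes (0.49 and -0.13 in clones #3 and #10) and immediate early genes (-0.41 and 0.17) also had medians of opposite sign in the clones. The difference between the clones was not tested, since each is 1 array.

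**Figure D2:**
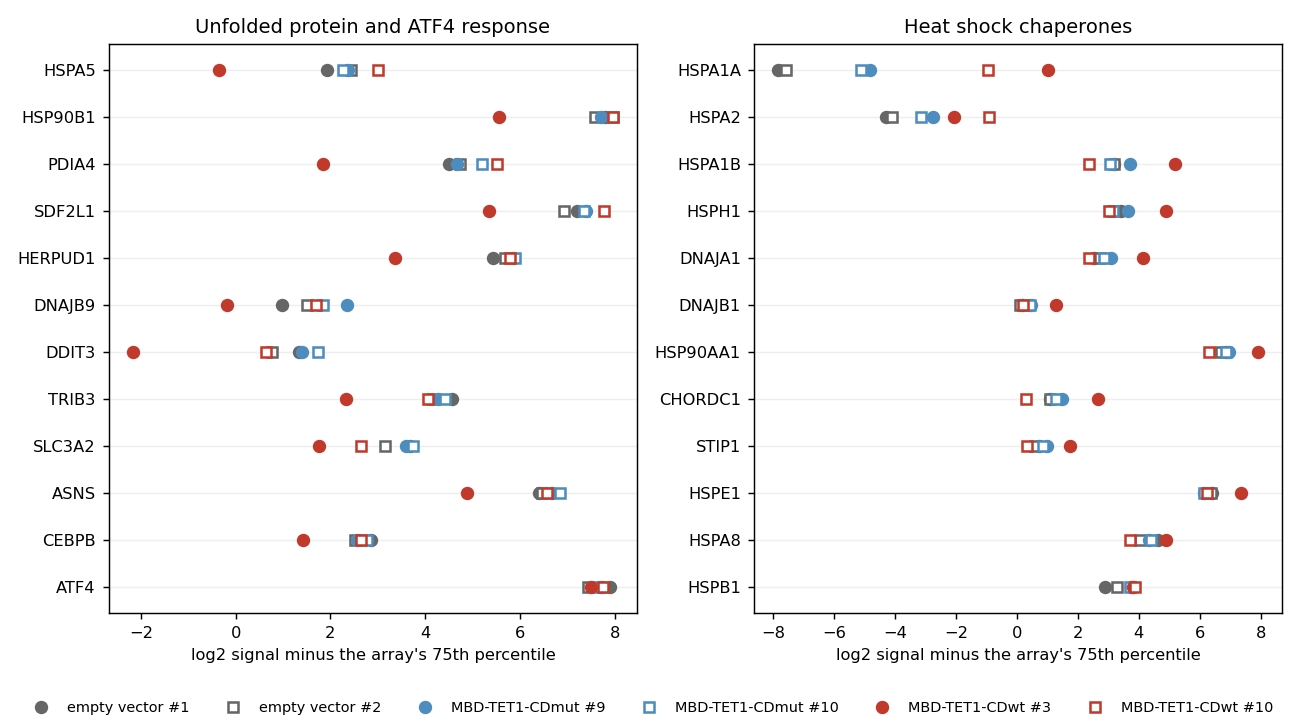
Signal on each array (log2, minus the array's 75th percentile) of genes of the unfolded protein and ATF4 response (left) and heat shock chaperones (right), chosen after their values were seen; points are single clones. MBD-TET1-CDwt #3 (filled red) is the lowest array for HSPA5, PDIA4, and DDIT3 and the highest for HSPA1B and HSP90AA1. MBD-TET1-CDwt #10 (open red) is the highest for HSPA5 and PDIA4 and the lowest for HSPA1B and HSP90AA1.

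A few ion channel genes fell. Of 215 ion channel genes, 3 were 2-fold lower in all pairs (CACNG6, CLCN4, and CACNB4) and 0 were higher (all genes, 0.133% and 0.306%). Against MBD-TET1-CDmut 1 was 2-fold lower in all pairs and 0 were higher (all genes, 0.18% and 0.278%). CLCN4, a chloride-proton exchanger, was at -4.50 and -3.22 in empty vector and -6.20 and -5.93 in MBD-TET1-CDwt, and CACNB4, a calcium channel subunit, at -2.71 and -2.46 against -3.75 and -3.91. limma called 0 members, and before adjustment 7 higher and 10 lower members had a p under 0.05 (all genes, 549 and 609 of 27739). Of the 94 of mean signal above background, 22 lay lower without overlap and 11 higher, where all genes gave 15.1% and 14.3%. Against MBD-TET1-CDmut 26 lay lower and 18 higher, where all genes gave 16.2% and 19%. The median difference from empty vector was -0.20 in clone #3, with 19 genes higher than both empty vector clones and 52 lower. It was 0.00 in clone #10, with 36 higher and 30 lower. Of 16 neuronal and neuroendocrine genes 7 lay lower and 3 higher without overlap, and none changed 2-fold in all pairs. In all, 20 of the 37 lists had no member that changed 2-fold in all pairs or was called by limma, among them MHC class I presentation, DNA methylation machinery, metallothioneins, cholesterol synthesis, and ribosomal proteins.

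Promoter sequence was compared between the genes that rose and fell, using the RefSeq window of 250 bases before and 50 after the start. A promoter was called CpG-rich with an observed/expected CpG ratio of at least 0.6 and a GC content of at least 50%. Of the 85 genes that rose and the 37 that fell, only 51 and 25 had a window, and the shares below are of genes with one. SOX17, KRT19, NEFH, IRF7, and CYP1B1 are among those without a window. Of 15153 genes with a window, 64.4% had a CpG-rich promoter, compared with 58.8% of the 51 that rose and 36.0% of the 25 that fell (95% Wilson intervals, 45.2% to 71.2% and 20.2% to 55.5%). The share of the genes that fell depended on MBD-TET1-CDwt #10 and was 66.2% when that clone was left out. Expressed genes have CpG-rich promoters more often than silent ones, so the share was also taken by signal in empty vector. Among genes not well above background in empty vector it was 26.4% of 3412 genes and 47.6% of the 21 that rose. Among genes well above background on both empty vector arrays it was 76.9% of 11229, 68.2% of the 22 that rose, and 36.0% of the 25 that fell. No test was made of these shares. DNA methylation was not measured on these arrays.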

How the data were processed

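The authors deposited, per the labels and file headers, the processed spot intensity of Agilent Feature Extraction (9.5.1 in the submitters' notes, 10.7.3.1 in the headers), a linear intensity after background subtraction with no scaling between arrays. The deposited series table holds the same intensities. Control and outlier-flagged spots (213 to 269 per array) were left out, spots of a probe were averaged as log2, and the array's 75th percentile was subtracted. A probe was well above background when over 50% of its spots were. Of 34127 probes, 74.5% had a symbol in the RefSeq table (GRCh38.p14). The brightest probe represented a gene. The limma model (version 3.58.1, R 4.3.3) had 1 mean for each of the 4 groups and used every array. It tested the 22530 probes that both arrays of at least 1 group measured well above background. Lists and counts used Python 3.11.15, and no set test was run. The limma fit and the size rule were tested on simulated data.

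The members and gene lists were chosen with earlier results of these data known. Genes were named by a rule: TET1 and MBD2, every limma call, the 10 largest rises and falls, and up to 4 changed members per list. Of these genes and the cell type markers, 2 are not reported here, and the next largest fall was taken in place of 1. Alternatives were normexp, quantile and median scaling, other filters, fits, and probes, and leaving out each clone. The planned mean spot signal is not used here, so normexp took the median signal. The precision is limited by 2 arrays per group. Nothing in the labels says that clones were assayed more than once, so p-values rest on the spread between clones, pooled over the 4 groups. For 18 of the 23 probes called higher no empty vector array was well above background, so this spread includes scatter of background signals. In genes of mean signal above background the standard deviation between clones was 0.50 in MBD-TET1-CDwt, 0.35 in empty vector, and 0.24 in MBD-TET1-CDmut. The pooled spread thus need not be that of MBD-TET1-CDwt.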

Additional observations from a re-analysis of the deposited data

How the results depend on the processing

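The planned normexp correction did not give usable values. Fitted on all spots, its background mean was -1321 on empty vector #2 and -240 on MBD-TET1-CDmut #10, against -4.21 to 3.51 on the other arrays, and 12 and 3 spots there, all flagged as outliers, lay more than 50 below their local background. With that fit limma called 0 probes in each direction of both comparisons (at unadjusted p under 0.05, 91 higher and 39 lower against empty vector), and the size rule gave 1 gene higher and 7 lower. Single genes and lists were not computed with it. A fit on spots without outlier flags, chosen after seeing the data, gave background means of 1.75 to 4.45. With it limma called 2 higher and 0 lower against empty vector, and 2 and 0 against MBD-TET1-CDmut, and the size rule gave 23 higher and 3 lower. This version adds an offset of 50 to every signal, which by construction shrinks differences of dim genes. By their brightest probe, limma had called 19 of the 56 named genes higher and 2 lower in the main fit. With this version 19 of these called genes lost their call, and FBP1, also called in the main fit, turned to 0.0026.

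Quantile and median scaling and keeping flagged spots changed no call among the 56 named genes. With no filter on dim probes limma called 9 higher and 1 lower against empty vector and 9 higher against MBD-TET1-CDmut. With probes well above background on all 4 arrays compared it called 0 in every direction (567 higher and 646 lower than empty vector at unadjusted p under 0.05), a setting that leaves out genes silent in empty vector. The fit on the 4 arrays compared called 2 higher and 0 lower against empty vector, and 0 and 0 against MBD-TET1-CDmut (633 and 610 at unadjusted p under 0.05). At unadjusted p under 0.05 the main fit had 640 probes higher and 847 lower than empty vector. With trend and robust estimation there were 0 lower against empty vector, and 10 higher and 0 lower against MBD-TET1-CDmut. Dim signals as measured gave 64 genes lower by the size rule.

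Leaving out 1 clone gave 7 to 83 probes higher and 0 to 58 lower against empty vector, and 3 to 68 higher and 0 to 101 lower against MBD-TET1-CDmut. The size rule then gave 159 to 552 genes higher and 85 to 497 lower, since fewer pairs must agree. The CpG-rich share was 59.8% to 63.3% for genes that rose and 34.7% to 66.2% for genes that fell, the highest without MBD-TET1-CDwt #10. With an observed/expected ratio of at least 0.65 and a GC content of at least 55% it was 45.1% for genes that rose, 32% for genes that fell, and 58.2% for all genes. Of the 37 list medians, leaving out 1 clone moved 6 to 11 by more than the spread between clones (6 without empty vector #2 and 11 without MBD-TET1-CDwt #10). No paired analysis was possible, because the clones are independently isolated lines and equal clone numbers do not match lines between groups.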
